A study of Mus musculus with 6 samples.

Results

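The respiratory chain genes described here were the protein-coding genes of complexes I to V chosen by symbol, nuclear (such as Ndufs1, Uqcrc2, Cox4i1, Atp5b and Sdha to Sdhd) and mitochondrial (mt-Nd, mt-Cytb, mt-Co and mt-Atp). Of 97 such genes in the annotation, 96 were among the 20687 gene symbols of the table, 83 of them nuclear and 13 mitochondrial, and Cox8c was not listed. Another 6 genes with matching symbols were pseudogenes and stayed out. Complex I had 37 nuclear and 7 mitochondrial members, complex II had 4 nuclear members, complex III had 8 and 1, complex IV had 17 and 3, and complex V, the ATP synthase, had 17 and 2. A few members carry a subunit's symbol in another role: Ndufa4 is known as a subunit of complex IV, Cox7a2l as a supercomplex assembly factor and Atp5s as a coupling factor. Each was counted in the complex that its symbol names.

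RNA from lungs bearing KP cells (Lung_KP, n = 3) was set against RNA from the KP cell line (CellLine_KP, n = 3). KP is the name of the line in the labels, which do not state its genotype. Lungs came from C57BL/6 mice given 100000 KP cells by tail vein and taken at day 28. Each lung sample pooled 3 mice, and the 3 samples came from independent experiments. For the cell line, also labelled C57BL/6, the labels speak of triplicates and not of separate cultures, so its spread, and the p-values, may be technical. No lung without KP cells was measured. Whole lung holds tumour cells and many normal cell types, and in such bulk samples fewer cells of a type and less RNA per cell cannot be told apart.

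The respiratory chain sits in the inner mitochondrial membrane. Complexes I and II pass electrons from NADH and succinate to ubiquinone, complex III passes them to cytochrome c and complex IV to oxygen, and the proton gradient made by complexes I, III and IV drives ATP synthesis by complex V. Most subunits are encoded in the nucleus and imported, while a few core subunits are made inside mitochondria from mitochondrial DNA, and complex II is wholly nuclear. Several subunits of complex IV exist as a common form and a second form restricted to certain tissues.

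Estimated counts totalled between 17786758 and 22862396 per sample. Values below are CPM, counts scaled to the same total per sample after TMM scaling of the library sizes, and lists of 3 values run from replicate 1 to replicate 3. A count of 0 in 1 sample allowed up to 0.173 CPM, from 3 counts, for counting error only. Marker genes went with the labelled tissue: all 6 alveolar type 2, 6 endothelial and 6 fibroblast markers were higher in lung, and the summed alveolar type 2 markers reached 14160 to 20770 CPM in lung samples, against 2.69 to 6.62 CPM in cell line samples.

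Lung replicate 2 stood apart from the other lung samples for these genes. Over the 81 nuclear members tested, its level was a median 2.62 times the mean of lung replicates 1 and 3, with a range of 0.790 to 3.94. The median ratio was 2.80 for the 58 members with transcripts under 1000 bases and 1.77 for the 23 longer ones. Among all tested genes the median ratio was 0.838, and it was 2.35 for the tested genes with transcripts under 1000 bases. Nuclear members are short, with a median length of 763 bases (368 to 2874), against 2743 bases over all tested genes. Across the 81 members the ratio's log2 value and log2 length had a Pearson correlation of -0.789 (Spearman -0.696), a description over genes that share these libraries. Counts of calls, and the tests of most genes named below, are therefore given with and without lung replicate 2.

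**Figure D1:**
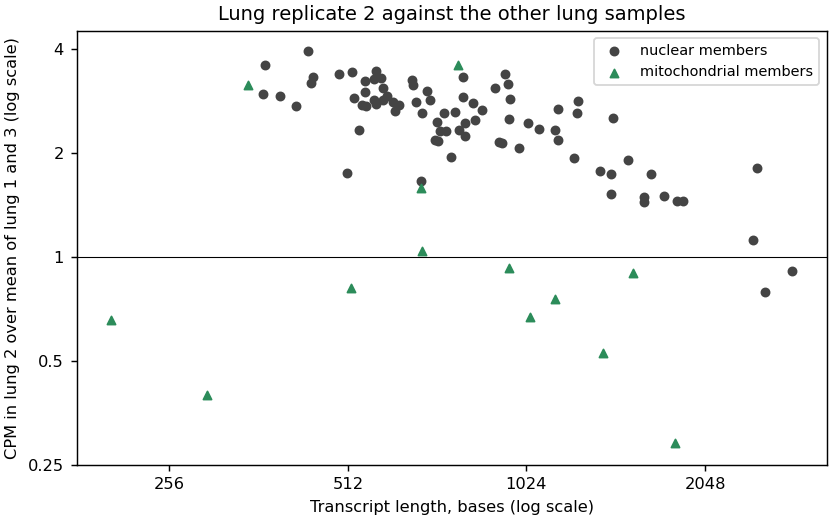
Level in lung replicate 2 over the mean of lung replicates 1 and 3 (y, log scale) against transcript length in bases (x, log scale) for each tested nuclear member (circles) and mitochondrial member (triangles). Nuclear members under 1000 bases lie between 1.66 and 3.94, while the mitochondrial members spread from 0.288 to 3.59.

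With all 6 samples, 4 of the 81 tested nuclear members rose in lung (edgeR quasi-likelihood test, adjusted p below 0.05 over 15212 genes), namely Cox4i2, Ndufa4l2, Cox6a2 and Cox6b2, and 2 fell, Ndufs1 and Ndufa10, both subunits of complex I. The 4 that rose are all second forms of a subunit with a restricted tissue range. All 4 passed the filter on low counts through their lung counts, with 0 or few counts in the cell line. A filter of 10 or more counts in all 6 samples removed them, so their calls depend on that filter. Over all genes tested, 31.3% were called higher and 17.5% lower in lung, beside 4.94% and 2.47% of the tested nuclear members. Their median log2 fold change was 0.34, against 0.08 over all genes. Under 1000 bases the median was 0.46 for members and 0.46 for all genes, and for longer transcripts -0.08 and 0.03. Lung lay wholly above the cell line for 6 members and wholly below it for 5, while the groups overlapped for 70. Over all genes, 35.6% had lung wholly above and 26.5% wholly below.

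Without lung replicate 2, the direction turned: 26 nuclear members fell and 3 rose, and their median log2 fold change was -0.38, against 0.00 over all genes. Under 1000 bases the median was then -0.31 for members and -0.22 for all genes, and for longer transcripts -0.56 and 0.02. The members' shares were 32.1% lower and 3.70% higher, and over the 15531 genes tested in that fit the shares were 24.3% lower and 33.1% higher. Members under 1000 bases fell in 13 of 58 cases (22.4%), the same share as among all genes under 1000 bases (22.4%). Longer members fell in 13 of 23 cases (56.5%), while 24.5% of all longer genes fell. These longer classes are not matched in length, as members reach 2874 bases and all tested genes 123179. Lung replicates 1 and 3 lay wholly below the cell line for 37 nuclear members, wholly above for 6, and overlapped it for 38. Over all genes in that fit, these 2 lung samples lay wholly below the cell line for 33.7% and wholly above it for 42.4%. With cell line replicate 1 left out as well, 36 members fell and 6 rose, beside 35.2% of all genes lower and 43.2% higher.

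**Figure D2:**
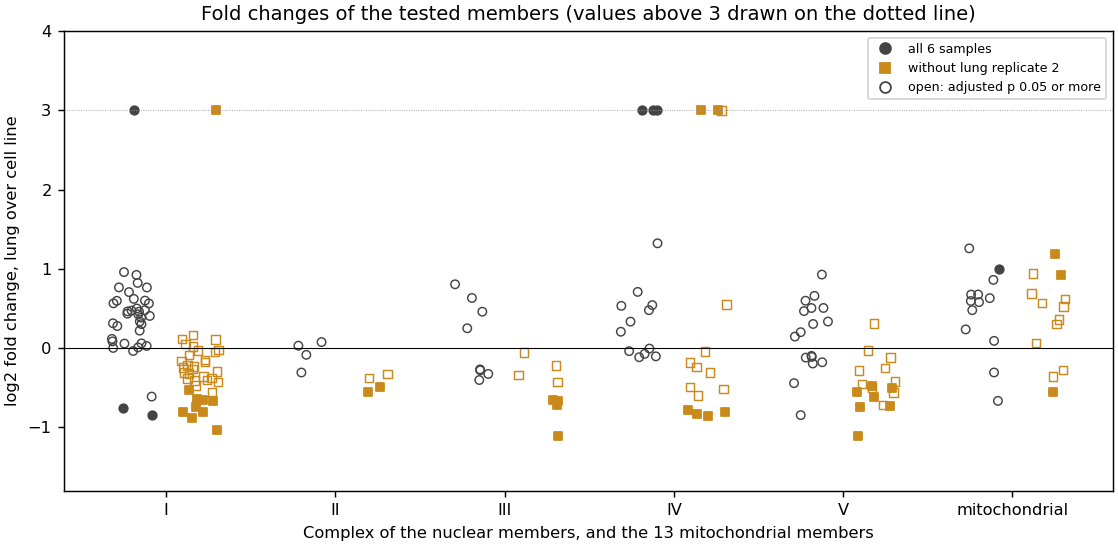
Log2 fold change of lung over cell line (y) for each tested nuclear member by complex and for the mitochondrial members (x), with all 6 samples (circles) and without lung replicate 2 (squares), filled where the edgeR adjusted p is below 0.05. The median of the nuclear members is 0.34 with all 6 samples and -0.38 without lung replicate 2, and the points on the dotted line are the second forms with changes above 3.

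Complex I took in the 2 nuclear members that fell with all 6 samples. Ndufs1, the largest core subunit, which carries iron-sulphur clusters, had 76.2, 59.7 and 74.8 CPM in lung, against 105, 135 and 139 CPM in the cell line. All lung samples lay below all cell line samples. The log2 fold change was -0.85 (SE 0.24, edgeR adjusted p = 0.0199), and -0.80 without lung replicate 2 (adjusted p = 0.0129). Ndufa10, an accessory subunit of the membrane arm, stood at 55.5, 84.1 and 56.6 CPM in lung and at 104, 113 and 114 CPM in the cell line. Its groups did not overlap either, with a log2 fold change of -0.75 (SE 0.25, adjusted p = 0.038) and of -1.04 without lung replicate 2 (adjusted p = 0.002). Both calls held without cell line replicate 1. They were lost without any 1 of lung replicates 1 and 3 and cell line replicates 2 and 3, with adjusted p between 0.0529 and 0.15.

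Of the 7 nuclear core subunits, 1 (14.3%) fell with all samples, beside 17.5% of all genes, and 3 (42.9%) fell without lung replicate 2, beside 24.3%, Ndufs1 and Ndufv2 among them. Among the other 30 nuclear members of complex I, 1 rose and 1 fell with all samples (3.33% each), and 1 rose and 6 (20%) fell without lung replicate 2. In both fits the 1 that rose was Ndufa4l2, which is counted here by its symbol, as is Ndufa4. The NADH-binding subunit Ndufv1 gave 81.8, 118 and 81.7 CPM in lung, against 87.1, 104 and 97.4 CPM in the cell line. Those groups overlapped, and neither fit called a change (adjusted p = 0.916 and 0.132).

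Complex II, succinate dehydrogenase, links the chain to the citric acid cycle. Sdha, its flavoprotein, had 187, 171 and 189 CPM in lung and 178, 244 and 255 CPM in the cell line. It is also the longest nuclear member, and its 3 lung samples lay close together. No change was called with all samples (log2 fold change -0.31, SE 0.25, adjusted p = 0.334) or without lung replicate 2 (-0.33, adjusted p = 0.231). Sdhb, the iron-sulphur subunit, had 73.2, 161 and 65.0 CPM in lung, against 89.2, 100 and 103 CPM in the cell line. Lung replicate 2 was above every cell line sample and the other lung samples were below them. Sdhb had a log2 fold change of 0.03 with all samples and fell by 0.56 on the log2 scale without lung replicate 2 (adjusted p = 0.023). Of the 2 membrane anchors, Sdhc fell without lung replicate 2 (log2 fold change -0.49, adjusted p = 0.023) and Sdhd was not called (-0.37, adjusted p = 0.235).

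In complex III, none of 8 nuclear members passed the threshold with all samples, and 4 (50%) fell without lung replicate 2, beside 24.3% of all genes. Uqcrc2, a core protein, had 106, 148 and 99.0 CPM in lung and 148, 156 and 162 CPM in the cell line. All lung samples were below all cell line samples, though lung replicate 2 only just (148.2 and 148.4 CPM), and its log2 fold change without lung replicate 2 was -0.66 (SE 0.14, adjusted p = 0.010). Uqcrfs1, the Rieske iron-sulphur protein, had 73.9, 118 and 59.2 CPM in lung, against 91.4, 111 and 112 CPM in the cell line, and fell without lung replicate 2 (-0.72, adjusted p = 0.019). Uqcrc1 and Uqcrq fell in that fit as well. For Uqcrq the cell line samples disagreed, at 128, 70.5 and 70.6 CPM. Cell line replicate 1 was likewise high for Cox7a2l, at 368 CPM, against 155 and 151 CPM in the other cell line replicates, while over the nuclear members its median ratio to them was 0.834.

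The common subunits of complex IV, cytochrome c oxidase, were not called with all samples. Cox4i1, a regulatory subunit, had 195, 473 and 169 CPM in lung and 330, 289 and 281 CPM in the cell line. Lung replicate 2 was the highest of the 6 samples and the other lung samples were the lowest. Cox4i1 had a log2 fold change of -0.10 with all samples (SE 0.41, adjusted p = 0.852) and fell by 0.78 without lung replicate 2 (SE 0.16, adjusted p = 0.00956). With Cox5a, Cox5b and Cox7b, 4 of the 15 tested members of complex IV (26.7%) fell in that fit, beside 24.3% of all genes. Cox6a1 and Cox8a, common forms, were not called in it (log2 fold change -0.18, adjusted p = 0.388, and -0.24, adjusted p = 0.381). Cox6b1 was not called either (-0.49, adjusted p = 0.144).

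None of the 17 nuclear members of complex V passed the threshold with all samples, and 7 (41.2%) fell without lung replicate 2, beside 24.3% of all genes. The catalytic beta subunit Atp5b had 606, 866 and 588 CPM in lung, against 899, 1399 and 1403 CPM in the cell line. Every lung sample was below every cell line sample. Its log2 fold change was -0.85 (SE 0.32, adjusted p = 0.060) with all samples and -1.11 (SE 0.28, adjusted p = 0.018) without lung replicate 2. The alpha subunit Atp5a1 had 503, 567 and 508 CPM in lung and 528, 817 and 800 CPM in the cell line, and neither fit called it (adjusted p = 0.234 and 0.113). Of the 5 subunits of the catalytic F1 head, 3 fell without lung replicate 2 (Atp5b, Atp5c1 and Atp5d).

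The epsilon subunit Atp5e, 438 bases long, had the largest excess in lung replicate 2 among the tested members. Its levels were 66.8, 222 and 45.8 CPM in lung, against 51.8, 65.3 and 58.8 CPM in the cell line, and it was not called with or without that sample. The 3 genes for the membrane ring's c subunit encode the same mature protein. Atp5g1 and Atp5g3 averaged 95.99 ± 58.5 and 168 ± 82.9 CPM in lung, against 83.5 ± 5.34 and 189.6 ± 55.25 CPM in the cell line (SD, n = 3 each). Atp5g1 fell without lung replicate 2 (log2 fold change -0.48, adjusted p = 0.044) and Atp5g3 was not called (-0.72, adjusted p = 0.093). Atp5g2 had only 6.44% of the counts it shares with Gm10175, a pseudogene transcript identical to it over 645 bases, so its own level is uncertain. The 2 together had 130, 307 and 111 CPM in lung, against 165, 178 and 166 CPM in the cell line, and fell without lung replicate 2 (-0.55, adjusted p = 0.0216). Ndufb4 of complex I had 30.5% of the counts it shares with Ndufb4c and is uncertain in the same way.

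The largest fold changes among the tested members were those of second forms of subunits. Cox4i2, the lung and smooth muscle form of Cox4 known for its part in oxygen sensing, had 21.5, 42.6 and 18.02 CPM in lung and 0 counts in every cell line sample. It was at least 532-fold higher in lung, counted against 3 counts over the cell line group (edgeR adjusted p = 0.000124), and at least 385-fold higher without lung replicate 2 (adjusted p = 0.000593). Per kb of transcript it made up 10.1%, 8.43% and 9.77% of Cox4i1 and Cox4i2 together in lung. In lung replicate 2, where both forms had raised levels, the share was the lowest of the 3.

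Ndufa4l2, a paralogue of Ndufa4 known as a target of hypoxia-inducible factor and abundant in pericytes, had 15.6, 31.5 and 13.8 CPM in lung and 0.187, 0.0576 and 0 CPM in the cell line. The cell line values rest on 5 counts, and the ratio of lung to cell line was 237 (95% exact Poisson interval of the cell line counts 101 to 729). The edgeR adjusted p was 9.77e-05, and 0.000574 without lung replicate 2. Ndufa4l2 was 9.0%, 7.34% and 12.2% of Ndufa4 and Ndufa4l2 per kb in lung, against 0.137%, 0.0281% and 0% in the cell line. All 8 smooth muscle and pericyte markers rose in lung, with a summed level of 518 to 572 CPM in lung and 15.6 to 19.5 CPM in the cell line, where none of the 8 was at 0 in all samples. Their part in the rise of Cox4i2 and Ndufa4l2 was not tested.

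Cox6b2, the testis form of Cox6b, had 4.51, 8.54 and 5.25 CPM in lung and 0 counts in the cell line. It was at least 117-fold higher in lung by the same bound (edgeR adjusted p = 0.000251, and 0.00192 without lung replicate 2). The common form, Cox6b1, was present in both groups, at 109, 289 and 78.3 CPM in lung and 96.2, 140 and 141 CPM in the cell line. Cox6b2 made up 4.50%, 3.34% and 6.80% of the pair per kb in lung. Germ cell markers were near 0, with a summed level of 0.312 to 0.439 CPM in lung and 0 to 0.187 CPM in the cell line, and Prm1 at 0 in all cell line samples.

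Cox6a2, the form of heart and skeletal muscle, had 6.79, 14.5 and 10.7 CPM in lung and 1.59, 0 and 0 CPM in the cell line. Only cell line replicate 1 held any counts of it. The log2 fold change was 4.26 (SE 1.2, edgeR adjusted p = 0.0188), and 3.92 (adjusted p = 0.0543) without lung replicate 2, so that the call was lost there. Without cell line replicate 1 the cell line had 0 counts and the call held (adjusted p = 0.00123), while DESeq2 did not call it (adjusted p = 0.0858). Cox8b, another muscle form, was at 0.200, 2.52 and 0.312 CPM in lung and at 0 in the cell line. By the same bound it was at least 19.6-fold higher in lung, but lung replicate 2 held most of its 68 counts. Lung replicates 1 and 3, with 11 counts, gave a bound of 4.78-fold, and the gene was filtered out before the test. Cox7a1, the muscle form of Cox7a, had 1.12, 3.76 and 1.45 CPM in lung, against 0.653, 0.979 and 0.896 CPM in the cell line, and was not called (adjusted p = 0.087, and 0.298 without lung replicate 2). Cox7b2, a testis form, was also not tested, with 0.0519 CPM in lung replicate 3 and 0 elsewhere.

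Markers of heart and striated muscle were measured beside the muscle forms. Of 12 such markers, 11 rose in lung and Tnnt2 fell, and their summed level was 140 to 219 CPM in lung and 25.5 to 76.9 CPM in the cell line. Tnnt2 made up nearly all of the cell line sum, with 24.5, 74.1 and 75.0 CPM there. In lung it had 24.3, 31.3 and 20.1 CPM. Myh6, Myh7 and Actn2 were at 0 in all cell line samples, and Myh6, the atrial and adult mouse heart myosin, had 29.5, 15.3 and 44.9 CPM in lung. Their part in the levels of Cox6a2, Cox7a1 and Cox8b was not tested. Brown fat markers, of a tissue that also uses Cox7a1 and Cox8b, summed to 0.28 to 1.30 CPM in lung and to 0 to 0.0933 CPM in the cell line, where Ucp1 was at 0.

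**Figure D3:**
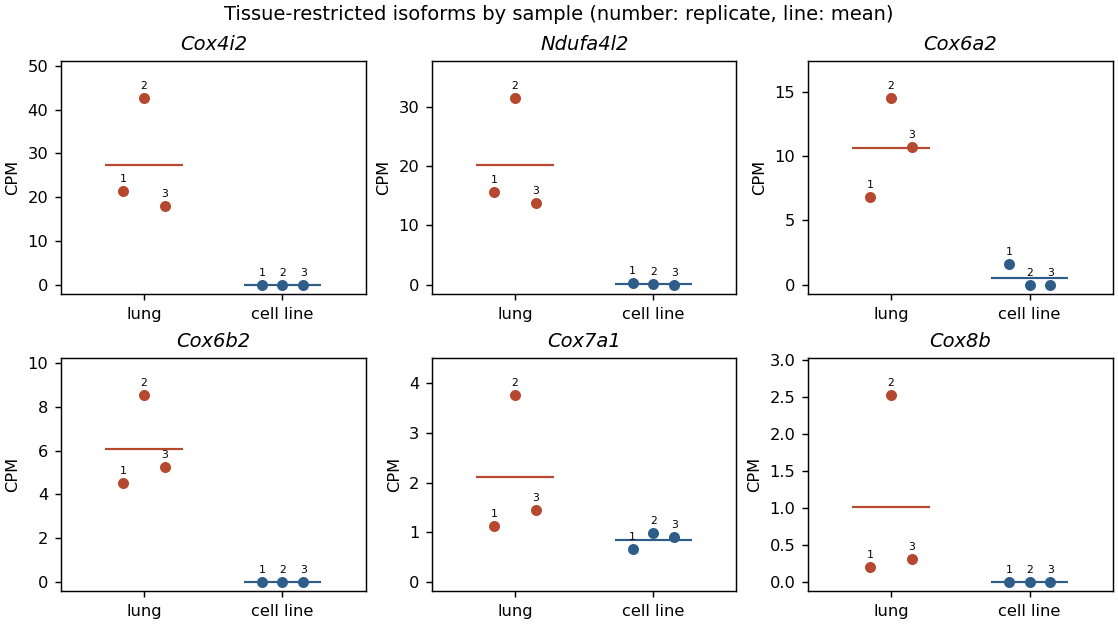
CPM of 6 second forms (y, linear scale, own range per panel) in the 3 lung samples and the 3 cell line samples (x), with the replicate number on each point and a line at the mean. Cox4i2, Cox6b2 and Cox8b are at 0 in every cell line sample, and Cox6a2 has a level above 0 in cell line replicate 1 only.

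Promoters of the pair Cox6b1 and Cox6b2 are shown because the common form was expressed in both groups and the second form was seen in lung alone, with Cox6a1, another common form, beside them. Each line gives the 200 bases before the gene's start from RefSeq on GRCm38.p6, 5′ to 3′ on the gene's minus strand, at chr5:115348959-115349158 for Cox6a1, chr7:30626115-30626314 for Cox6b1 and chr7:4753095-4753294 for Cox6b2. Capitals mark, on either strand, the ETS core CCGGAAG bound by GABP and the NRF1 motif, which is GCGCA, 1 base of any kind and GCGC. Both factors are known regulators of nuclear respiratory genes.
Cox6a1: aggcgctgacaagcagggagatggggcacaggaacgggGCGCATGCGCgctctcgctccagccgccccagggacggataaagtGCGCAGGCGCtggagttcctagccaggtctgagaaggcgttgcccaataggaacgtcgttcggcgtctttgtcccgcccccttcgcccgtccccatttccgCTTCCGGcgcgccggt
Cox6b1: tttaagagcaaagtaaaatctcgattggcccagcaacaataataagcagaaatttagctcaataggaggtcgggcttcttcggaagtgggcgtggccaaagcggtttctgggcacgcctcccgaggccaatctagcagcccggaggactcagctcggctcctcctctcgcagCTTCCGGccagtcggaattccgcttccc
Cox6b2: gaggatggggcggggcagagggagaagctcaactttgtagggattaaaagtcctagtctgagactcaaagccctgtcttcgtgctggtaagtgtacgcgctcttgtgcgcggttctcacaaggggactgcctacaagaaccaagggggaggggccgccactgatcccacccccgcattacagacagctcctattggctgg

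The window of Cox6a1 held 3 matches, that of Cox6b1 held 1 and that of Cox6b2 held 0. Over the promoter table's full window, 250 bases before to 50 after the start, 66 of the 83 nuclear members had an entry. Cox4i1, Cox4i2, Cox6a2 and Ndufa4l2 were among those without one. CCGGAAG stood in 16 of the 66 (24.2%), against 9.93% of all 27025 genes in the table. The NRF1 motif stood in 17 (25.8%), against 5.19% of all genes, and the TATA box TATAAA in 7 (10.6%), against 15.7%. Both strands were searched and each motif was counted on its own, whether or not it overlapped another. CCGGAAG and the NRF1 motif were both absent from the full windows of Cox5a, Cox5b, Cox7a2, Cox7b and Cox7c, common subunits of complex IV. They were also absent for the second forms Cox7a1, Cox7b2 and Cox8b, while the common form Cox8a had CCGGAAG. A match describes letters and not a bound site.

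The 13 mitochondrial members are coded in long transcripts of the mitochondrial genome that are cut into mRNAs. Of the 13, 1 rose with all samples (mt-Nd4) and none fell, beside 31.3% and 17.5% of all genes. Their median log2 fold change was 0.60, against 0.08 over all genes. With the near-identical copies described below joined, the median was 0.31 with all samples and 0.57 without lung replicate 2. At an unadjusted p below 0.05, edgeR gave 3 higher and 1 lower, DESeq2 5 and 1, and limma-voom 2 and 1. By adjusted p, DESeq2 gave 4 higher and 1 lower, and limma-voom 2 higher and 0 lower. Shares over all genes are not given for these counts, so they cannot be read against all genes. Without lung replicate 2, mt-Nd4 and mt-Cytb rose and mt-Atp8 fell. The lung samples lay wholly above the cell line for 4 members, namely mt-Atp6, mt-Co1, mt-Cytb and mt-Nd4, and wholly below it for mt-Atp8. These were 4 and 1 of 13, beside 35.6% and 26.5% of all genes. With copies joined, the groups overlapped for mt-Atp6, while mt-Co2 and mt-Co3 lay wholly above the cell line.

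mt-Nd4, a core proton-pumping subunit of complex I, had 3191, 1781 and 3578 CPM in lung, against 1260, 1453 and 1549 CPM in the cell line. Lung replicate 2 was the lowest lung sample but still above every cell line sample. The log2 fold change was 1.0 (SE 0.35, edgeR adjusted p = 0.0453), and 1.19 (SE 0.22, adjusted p = 0.00652) without lung replicate 2. Leaving out any of the other 5 samples ended the call, with adjusted p between 0.0888 and 0.162. mt-Cytb, the cytochrome b of complex III, had 3788, 3025 and 4218 CPM in lung and 1591, 2151 and 2330 CPM in the cell line. Its groups did not overlap, with a log2 fold change of 0.86 (SE 0.32, adjusted p = 0.0549) and of 0.92 (adjusted p = 0.0289) without lung replicate 2.

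mt-Co1, the catalytic subunit of complex IV, had 10010, 9285 and 10640 CPM in lung, against 5661, 6595 and 7071 CPM in the cell line. Lung was wholly above the cell line, and no change was called (log2 fold change 0.63, SE 0.32, adjusted p = 0.132, and 0.0934 without lung replicate 2). mt-Atp8, a small ATP synthase subunit, had 354, 244 and 389 CPM in lung and 515, 501 and 549 CPM in the cell line. It was below the cell line in every lung sample, with a log2 fold change of -0.67 (SE 0.28, adjusted p = 0.081) and of -0.55 (SE 0.17, adjusted p = 0.037) without lung replicate 2. mt-Nd1 had 2460, 2450 and 2839 CPM in lung and 1758, 2590 and 2923 CPM in the cell line, and the groups overlapped. mt-Nd2 gave 1584, 1212 and 2051 CPM in lung, against 864, 1127 and 1251 CPM in the cell line, which overlapped in lung replicate 2 only.

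Lung replicate 2 moved both ways among the mitochondrial members. mt-Nd5 had 420 CPM there, against 1330 and 1585 CPM in lung replicates 1 and 3, and 864, 950 and 1018 CPM in the cell line. mt-Co3 had 2336 CPM there, against 583 and 720 CPM in the other lung replicates and 405, 599 and 517 CPM in the cell line. No change was called for either. mt-Nd6, the only member coded on the light strand and known to lack a stable poly(A) tail, had 32.3, 25.6 and 30.5 CPM in lung and 25.3, 42.3 and 41.7 CPM in the cell line.

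Several of these levels are uncertain because nuclear copies of mitochondrial DNA took most of the counts. The gene row of mt-Co2 held 1.80% of the counts it shares with its near-identical copies, that of mt-Atp6 10.1%, that of mt-Co3 19.8% and that of mt-Nd3 28.5%. The copies in question, Gm28661, Gm10925, Gm28437 and Gm28438, are annotated as pseudogenes on chromosome 1. Gm28661 was identical to mt-Co2 over 681 bases, Gm10925 to mt-Atp6 over 678 and Gm28437 to mt-Co3 over 783. Over 345 aligned bases Gm28438 and mt-Nd3 differed at 1 position, T3C, counted from 1 at the first base of the mt-Nd3 transcript. The 2 starts below, from the transcript sequences of GENCODE M21, have that base in capitals and show how little there was to tell the rows apart.
mt-Nd3: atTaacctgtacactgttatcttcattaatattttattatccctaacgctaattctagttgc
Gm28438: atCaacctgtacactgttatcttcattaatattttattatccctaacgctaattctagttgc

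With the copies joined to their member, mt-Co2, which carries the copper site that takes electrons from cytochrome c, had 3937, 5119 and 4004 CPM in lung and 1828, 2450 and 2697 CPM in the cell line. Lung was above the cell line in every sample, with a log2 fold change of 0.90 (SE 0.32, edgeR adjusted p = 0.0468), and adjusted p = 0.0638 without lung replicate 2. Joined mt-Co3 had 4112, 7446 and 4513 CPM in lung and 3559, 3216 and 3420 CPM in the cell line (adjusted p = 0.155). Joined mt-Atp6 had 3663, 3588 and 4415 CPM in lung, against 3952, 3516 and 3876 CPM in the cell line (edgeR log2 change 0.04, SE 0.30). Joined mt-Nd3 had 354, 761 and 409 CPM in lung and 471, 463 and 469 CPM in the cell line (adjusted p = 0.793). Joined mt-Nd4l was 300, 112 and 302 CPM in lung, against 158, 202 and 216 CPM in the cell line, and rose only in the fit without lung replicate 2 (log2 fold change 0.59, adjusted p = 0.043). These joins were chosen after the data had been seen.

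Levels can be compared between genes per kb of transcript with copies joined. In lung mt-Co1 led at 7244 ± 139.6 CPM per kb, then came mt-Co3 at 6833 ± 2322, mt-Co2 at 6364 ± 971 and mt-Atp6 at 5710 ± 672 (SD, n = 3). In the cell line mt-Atp6 led at 5553 ± 342 CPM per kb, before mt-Co3 at 4334 ± 220, mt-Co1 at 4258 ± 451 and mt-Co2 at 3399 ± 655 (SD, n = 3). Within lung, these 4 means differed by less than the SD of mt-Co3, and in the cell line mt-Co3 and mt-Co1 by less than their SD. mt-Nd6 was last in both groups, at 56.8 ± 6.70 CPM per kb in lung and 70.3 ± 18.6 CPM per kb in the cell line.

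**Figure D4:**
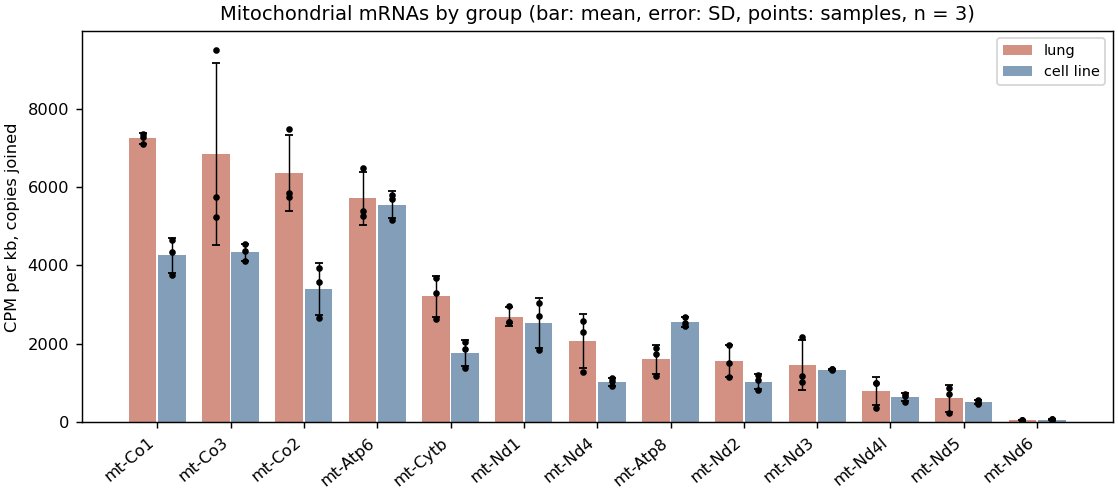
Mean CPM per kb of transcript (y), copies joined, for the 13 mitochondrial members (x) in lung and cell line, with SD bars and a point per sample. Means are higher in lung except for mt-Atp8 (1612 and 2557) and mt-Nd6 (56.8 and 70.3), with mt-Nd4 at 2068 and 1031. mt-Atp6 is near equal at 5710 and 5553, and the points of the groups overlap for others too, such as mt-Nd1 and mt-Nd5. The lung mean of mt-Nd3 is higher through lung replicate 2 alone (1017, 2187 and 1176 in lung, 1352, 1331 and 1349 in the cell line).

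Summed over the 83 nuclear members, the level was 6700, 13520 and 5547 CPM in lung and 7592, 9154 and 9103 CPM in the cell line. Lung replicate 2 was the highest of the 6 samples, and the other lung samples were below every cell line sample. The ratio of lung to cell line means was 0.997 with all samples and 0.711 without lung replicate 2. By complex, the ratio without lung replicate 2 was 0.778 for complex I, 0.787 for complex II, 0.709 for complex III, 0.739 for complex IV and 0.646 for complex V. With all samples it ran from 0.844 for complex V to 1.16 for complex IV.

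The 13 mitochondrial members summed to 24120, 21870 and 26930 CPM in lung and to 13610, 16560 and 17810 CPM in the cell line. All lung samples were above all cell line samples, by a ratio of means of 1.52, and of 1.596 without lung replicate 2. With the copies joined, the sums were 36050, 37450 and 39690 CPM in lung and 22670, 25370 and 27540 CPM in the cell line, and the ratio of means was 1.498 with that sample and 1.503 without it. Mitochondrial members took 2.65%, 2.32% and 2.93% of all gene counts in lung, against 1.29%, 1.52% and 1.62% in the cell line. The ratio of mitochondrial to nuclear sums was 3.6, 1.62 and 4.85 in lung, and 1.79, 1.81 and 1.96 in the cell line. Lung replicates 1 and 3 were above the cell line by this ratio and lung replicate 2 was below it. No p-value is given for sums over members.

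**Figure D5:**
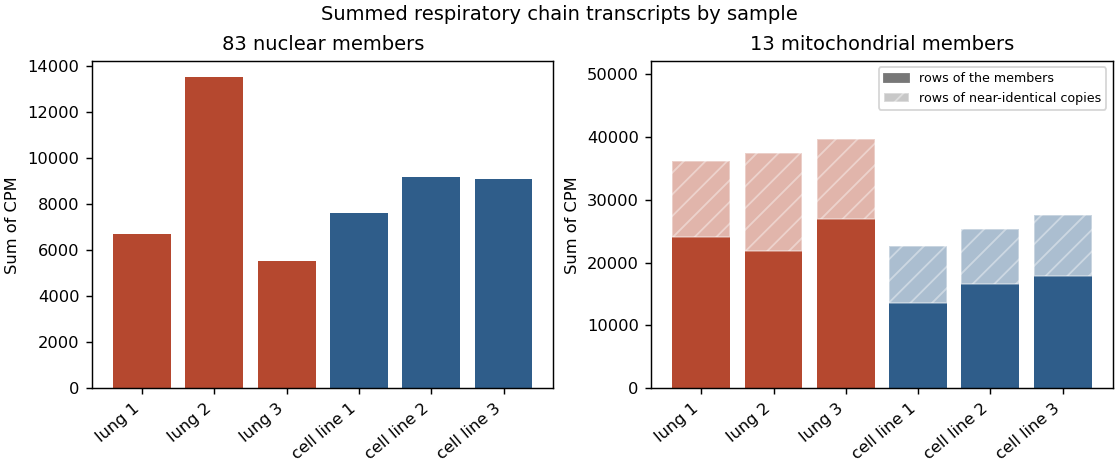
Summed CPM (y) of the nuclear members (left) and the mitochondrial members (right) in each sample (x), with the near-identical copies of mitochondrial members hatched. The nuclear sum is highest in lung replicate 2 at 13520 and lowest in lung replicate 3 at 5547, and the mitochondrial members' own rows sum to 21870 or more in lung samples and to 17810 or less in cell line samples.

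Genes that supply and regulate the chain were read from the same fit. Each list's shares stand beside those of all genes, which were 31.3% higher and 17.5% lower with all samples, and 33.1% higher and 24.3% lower without lung replicate 2. Citric acid cycle enzymes, which make NADH and succinate for the chain, fell in 5 of 13 cases (38.5%) and rose in none with all samples, and fell in 8 (61.5%) without lung replicate 2. Their median log2 fold change was -0.66, against 0.08 over all genes. Citrate synthase, Cs, had 168, 157 and 183 CPM in lung, against 323, 392 and 381 CPM in the cell line (edgeR log2 change -1.11, SE 0.24, adjusted p = 0.00565, and -1.12, adjusted p = 0.00376, without lung replicate 2). The groups did not overlap, and lung replicate 2 differed from the other lung samples by less than lung from cell line. Idh3a, Dld and Suclg2 fell as well, in both fits.

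Genes for mitochondrial DNA upkeep and transcription fell in 5 of 14 cases (35.7%) with all samples, namely Twnk, Tfb2m, Polrmt, Top1mt and Mgme1, and in 7 (50%) without lung replicate 2, and none rose. Tfb2m, a transcription initiation factor, had 27.8, 30.7 and 26.4 CPM in lung, against 59.4, 53.1 and 56.7 CPM in the cell line (edgeR log2 change -0.996, adjusted p = 0.00588, and -1.12, adjusted p = 0.00203, without lung replicate 2). Twnk, the replicative helicase, had 22.7, 17.7 and 19.2 CPM in lung, against 58.1, 45.7 and 45.6 CPM in the cell line (-1.33, adjusted p = 0.00224, and -1.31, adjusted p = 0.00274, in that fit). Of 78 mitochondrial ribosome genes, 9 (11.5%) fell and none rose with all samples, and 45 (57.7%) fell without lung replicate 2. Mrps5, for example, had 37.4, 44.4 and 31.8 CPM in lung, against 68.3, 82.5 and 77.5 CPM in the cell line (-1.01, adjusted p = 0.00855, and 0.00239 without lung replicate 2).

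Of 51 assembly factors, 2 (3.92%) rose and 4 (7.84%) fell with all samples, and 1 (1.96%) rose and 15 (29.4%) fell without lung replicate 2. Lrpprc, known to stabilise mitochondrial mRNAs and mutated in a human form of complex IV deficiency, had 47.3, 27.2 and 39.9 CPM in lung and 188, 151 and 147 CPM in the cell line. Its log2 fold change was -2.09 (SE 0.29, edgeR adjusted p = 0.000585), and -1.95 without lung replicate 2 (adjusted p = 0.000647). Acad9, Cox15 and Coa7 also fell, and Ndufaf3 and Cox20 rose. Without lung replicate 2 the call of Cox20 was lost (log2 fold change 0.56, adjusted p = 0.0528) and the other 4 held. Among 8 regulators of mitochondrial biogenesis, Pprc1 (-1.46, adjusted p = 0.00378) and Gabpa (-0.98, adjusted p = 0.0263) fell (25%) and none rose. Without lung replicate 2, 4 (50%) fell, these 2 among them (adjusted p = 0.00433 and 0.00596). Gabpa, the DNA-binding subunit of GABP, had 64.4, 33.3 and 62.1 CPM in lung, against 97.4, 106 and 112 CPM in the cell line.

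Of 15 genes for ubiquinone synthesis and cytochrome c, 3 (20%) rose with all samples, namely Coq8a, Coq8b and Coq10a, and 1 (6.67%), Pdss2, fell. Without lung replicate 2, the same 3 rose and 4 (26.7%) fell. Coq8b, an atypical kinase of ubiquinone synthesis, had 21.4, 29.8 and 28.3 CPM in lung, against 13.7, 10.7 and 10.8 CPM in the cell line (edgeR log2 change 1.17, adjusted p = 0.006, and 1.02, adjusted p = 0.0112, without lung replicate 2). Among 5 tested uncoupling proteins and carriers, Ucp2 and Ucp3 rose and Slc25a4 fell, in both fits, and Slc25a3 fell without lung replicate 2 alone. Ucp2, an inner membrane carrier abundant in immune cells, had 388, 464 and 495 CPM in lung and 28.8, 36.6 and 27.8 CPM in the cell line (3.85, SE 0.28, adjusted p = 3.5e-05, and 0.000152 without lung replicate 2). Of 6 macrophage markers, 5 rose, with a summed level of 6878 to 8966 CPM in lung and 100.3 to 228 CPM in the cell line, and their part in the rise of Ucp2 was not tested. Slc25a4, the ADP and ATP carrier of heart and muscle, had 214, 369 and 173 CPM in lung, against 446, 578 and 568 CPM in the cell line (-1.08, adjusted p = 0.0322, and -1.52, adjusted p = 0.00274, without lung replicate 2).

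Among 5 regulators of supercomplexes and of the response to hypoxia, AA467197 rose and Hif1a and Pdk1 fell, with and without lung replicate 2. Hif1a, the oxygen-regulated transcription factor subunit, had 102, 50.5 and 109 CPM in lung and 514, 333 and 353 CPM in the cell line (edgeR log2 change -2.20, SE 0.37, adjusted p = 0.00159, and 0.00176 without lung replicate 2). Pdk1, a kinase that restrains pyruvate dehydrogenase, had 35.8, 30.6 and 37.0 CPM in lung, against 144, 91.9 and 96.3 CPM in the cell line (-1.68, adjusted p = 0.00119, and 0.00281 in that fit). AA467197, the mouse relative of the complex IV subunit NMES1, had 11.0, 28.4 and 11.6 CPM in lung and 6.91, 4.09 and 3.64 CPM in the cell line (1.80, adjusted p = 0.0133, and 1.15, adjusted p = 0.0293, without lung replicate 2). Ndufab1, Usmg5 and Atpif1, subunits or regulators of the chain whose symbols fall outside the rule, were not called with all samples, and Ndufab1 and Usmg5 fell without lung replicate 2.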

How the data were processed

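The authors deposited estimated counts per transcript, 1 column per sample. The submitters' processing notes name the tools Salmon 1.4.0, FastQC 0.11.9 and DESeq2 1.32.0 with the build GRCm39. Per the labels' protocols, RNA was amplified by a Nugen protocol, and libraries were made with a stranded mRNA kit. Cell line samples carry that same text. Of 76776 transcripts, 76521 (99.67%) matched GENCODE M21, which belongs to another build and was used for names, gene types, chromosomes, lengths and transcript sequences. The other 255 held 0.11% to 0.42% of a sample's counts and were left out. Counts were summed per symbol, 19 symbols joining several gene identifiers, and rounded. Lengths per sample are not in the table, so isoform use was not corrected for.

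Lung was compared with cell line by edgeR 4.0.16 (R 4.3.3): TMM scaling, filter by group, robust quasi-likelihood F test, group as the only term, Benjamini-Hochberg adjustment over 15212 genes, threshold 0.05. Fold changes are lung over cell line with standard errors (SE). Near-identical copies were found with BLAST 2.17.0, from 95% identity over at least 50% of the member's transcript or over nearly all of the copy's. By the second rule Gm29216 was joined to mt-Co1, over 483 of its 1545 bases. The row of mt-Co1 itself held 92.0% of the joined counts. The members and lists were chosen with earlier results of these data known. Named genes were all mitochondrial members, isoform groups and complex II, the 2 highest and 2 most changed members of each other complex, and the 2 highest called genes of each list with the 1 most changed in the rarer direction. Any other gene was named with its values known. The test was tried on simulated data. Alternatives were DESeq2 1.42.0, limma 3.58.1 with and without sample weights, other scalings and filters, a transcript length offset, the replicate number as a block, and samples left out. Some named genes are not reported here.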

Additional observations from a re-analysis of the deposited data

How the results depend on the processing

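The counts of called members depended on single libraries and the cause was not tested. Leaving out 1 sample gave between 3 and 8 nuclear members higher and between 0 and 26 lower. The 8 were without lung replicate 3 and added Ndufa1, Ndufa3, Ndufb2 and Ndufb4, and 0 fell without lung replicate 1, lung replicate 3, cell line replicate 2 or cell line replicate 3. For mitochondrial members the same range was 0 to 2 higher and 0 to 1 lower. With lung replicate 2 and cell line replicate 1 both out, 36 nuclear members fell (44.4%), and 8 mitochondrial members rose and 2 fell. Of all genes, 43.2% were higher and 35.2% lower in that fit. Sample weights (limma) gave 34 nuclear members lower (42.0%), and 8 mitochondrial members higher and 2 lower. With these weights, 44.1% of all genes were higher and 36.4% lower. A transcript length offset gave 8 nuclear members lower (9.88%) and 0 mitochondrial members higher, beside 24.4% of all genes lower and 35.4% higher. Requiring 10 or more counts in all 6 samples removed the second forms, leaving 0 nuclear members higher and 0 lower with 2 mitochondrial higher, and no filter left 0 mitochondrial higher. Library size alone moved the median log2 fold change of all genes to 0.31, against 0.08. It gave 0 nuclear members lower and 2 mitochondrial higher, beside 11.4% of all genes lower and 34.2% higher. DESeq2 called 4 mitochondrial members higher and 1 lower, and limma-voom 2 higher. Joining copies gave 2 mitochondrial members higher, and joining them without lung replicate 2 gave 3 higher and 1 lower with 26 nuclear members lower. Shares of all genes with copies joined were 31.3% higher and 17.5% lower, and 33.2% and 24.3% without lung replicate 2. Shares over all genes are not given for the remaining settings, the replicate block below included, so their counts cannot be read against all genes.

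The replicate number as a block gave 0 nuclear members lower, 3 higher and 0 mitochondrial members higher. Deviations of same-numbered samples correlated at -0.04, 0.08 and -0.08, so the numbers were not taken as pairs. The log2 ratio of summed nuclear levels was -0.01 (main) and -0.58 with both libraries out, and that of mitochondrial levels was 0.60, and 0.84 by library size alone. Turned directions, in order of sample weights, without lung replicate 2, both libraries out and joined copies without lung replicate 2, were -0.36, -0.48, -0.47 and -0.48 for Atp5g1 and -0.48, -0.56, -0.56 and -0.56 for Sdhb. With weights and with both libraries out they were -0.43 and -0.59 for Cox6b1 and -0.35 and -0.48 for Sdhd. Left-out single samples ranged from -0.48 to 0.48 for Atp5g1 and from -0.56 to 0.26 for Sdhb. Over named genes and alternatives, 601 values stayed on their side of the threshold, 70 of them with the direction turned and no call in either fit. Another 77 passed it newly, 26 no longer passed it, and 12 turned direction with a call, as given above. Depth limits the second forms: Cox8b and Cox7b2 could not be tested.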
